A study of Mus musculus with 46 samples.

Results

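The tissue was the BNST, or bed nucleus of the stria terminalis, a small forebrain nucleus of the extended amygdala, and its gene expression was compared between ethanol-exposed mice killed 8 hours after their last vapor session (CIE 8h) and ethanol-exposed mice killed as that session ended (CIE 0h). The mice were chosen by treatment and time alone and every probeset was compared. There were 6 mice in each group, 1 per array, which is 12 of the 46 arrays of the series. All mice were adult C57BL/6J males. CIE mice went through 4 cycles of chronic intermittent ethanol, each with 4 days of ethanol vapor for 16 hours per day at 10 to 13 mg/l of air, and 7 days without ethanol lay between cycles. Each cycle opened with an intraperitoneal injection of ethanol (1.6 g/kg) and of pyrazole (1 mmol/kg), which blocks alcohol dehydrogenase and so holds blood ethanol steady. Ctrl mice were handled alike and received saline, pyrazole and air, so both arms carried pyrazole, and 6 Ctrl mice were killed at each of the same times. Vapor is forced exposure, so the mice model intoxication and withdrawal and not drinking. The 8h mice were also killed at another hour of the day than the 0h mice, and within CIE mice withdrawal and time of day cannot be told apart. A Ctrl change, where given beside a result, is that of the same interval without ethanol. A result given without a Ctrl change is not thereby particular to CIE mice.

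The BNST joins the amygdala and hippocampus to hypothalamic and brainstem centres of stress and reward, and it is known for its part in anxiety and in the aversive state of ethanol withdrawal. Most of its neurons are GABAergic and many carry neuropeptides such as corticotropin-releasing hormone. Ethanol dampens neuronal firing and drives the release of glucocorticoids, hormones that enter the nucleus with their receptor and switch genes on, and as ethanol clears, firing rebounds. Genes that neurons transcribe on firing, genes that glucocorticoids induce and genes of protein folding can be read in tissue RNA.

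Levels are log2 array intensities. A change is the mean at 8h minus the mean at 0h on that scale, so that a change of 1 is a doubling, and levels of different genes cannot be compared on an array. The medians of all 46 arrays lay between 6.78 and 6.83, and the correlations between the 12 arrays between 0.9862 and 0.9980. The array of CIE 8h replicate 21 stood apart, with a median correlation of 0.9918 to the other 11 arrays, while each of those had 0.9949 or more. Calls of named genes and list counts that it changed are given with and without it. Neuronal identity genes had mean levels of 11.916 to 12.036 in the 0h mice and 12.010 to 12.120 in the 8h mice. They mark neurons of any brain region, so these levels do not check that the tissue was BNST. Markers of striatal medium spiny neurons, which lie beside the BNST, had mean levels of 10.174 to 11.044 at 0h and 9.939 to 10.878 at 8h. The spread of the striatal markers within each group was thus wider than that of the neuronal genes. In bulk tissue, fewer cells of a type and less RNA per cell cannot be told apart.

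In CIE mice 1458 of 45037 probesets passed the test (3.24%), with 846 higher at 8h (1.88%) and 612 lower (1.36%), by limma at an adjusted p of 0.01 or less. With each gene read by its brightest probeset, 540 of 18193 genes passed (2.97%), of which 363 rose (2.00%) and 177 fell (0.973%). These shares are the background of all list counts below, and no list was tested as a set. Most changes were small. The median size among called probesets was 0.33, while 206 probesets changed by more than 1.5-fold and 32 by more than 2-fold. Without CIE 8h replicate 21, 1211 probesets were called, 1019 of them among the 1458. By genes, 286 then rose and 215 fell, and 404 of the 501 were among the 540. For list counts without that array these are the background. Without CIE 0h replicate 57, 26 or 67 the count of probesets was 875, 929 or 943. In the fit on the 12 CIE arrays alone 475 probesets were higher and 592 lower, so the balance of the directions turned. Of all genes, 756 had values at 8h that did not overlap those at 0h (4.16%).

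The same interval in Ctrl mice gave 321 called probesets (0.713%), with 191 higher (0.424%) and 130 lower (0.289%). By genes 124 passed (0.682%), of which 108 rose (0.594%) and 16 fell (0.0879%). No array is shared with the CIE comparison. Of the genes, 40 were called in both, all in the same direction, which is 7.41% of those called in CIE mice and 32.3% of those called in Ctrl mice. Of the 540 genes called in CIE mice, 444 had a Ctrl change of the same sign (82.2%), as had 63.4% of all genes. Genes that rose in CIE mice had a median change of 0.264 there and of 0.12 in Ctrl mice. Genes that fell had a median of -0.295 in CIE mice and of -0.0523 in Ctrl mice. Of the 612 probesets that fell, 435 were not the one read for a gene. Over all probesets that fell the medians were -0.43 in CIE mice and -0.229 in Ctrl mice. Over those that rose they were 0.293 and 0.128. Probesets called in both arms numbered 134 (41.7% of the Ctrl calls), 133 of them in the same direction. Of the probesets called in CIE mice 89.2% had a Ctrl change of the same sign, as had 66.7% of all. Tested directly, the change in CIE mice differed from that in Ctrl mice for 36 probesets (0.0799%) and 22 genes (0.121%), 11 with the higher and 11 with the lower change in CIE mice (0.0605% each), and 18 of the 22 genes were among those called in CIE mice. Without CIE 8h replicate 21 that count was 45 probesets and 32 genes, and without CIE 0h replicate 57 or CIE 8h replicate 69 it was 23 or 22 probesets. Levels of CIE mice are also set against those of Ctrl mice at the same time, where 3.09% of genes differed at 0h and 0.742% at 8h, and these comparisons share arrays with the changes.

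**Figure D1:**
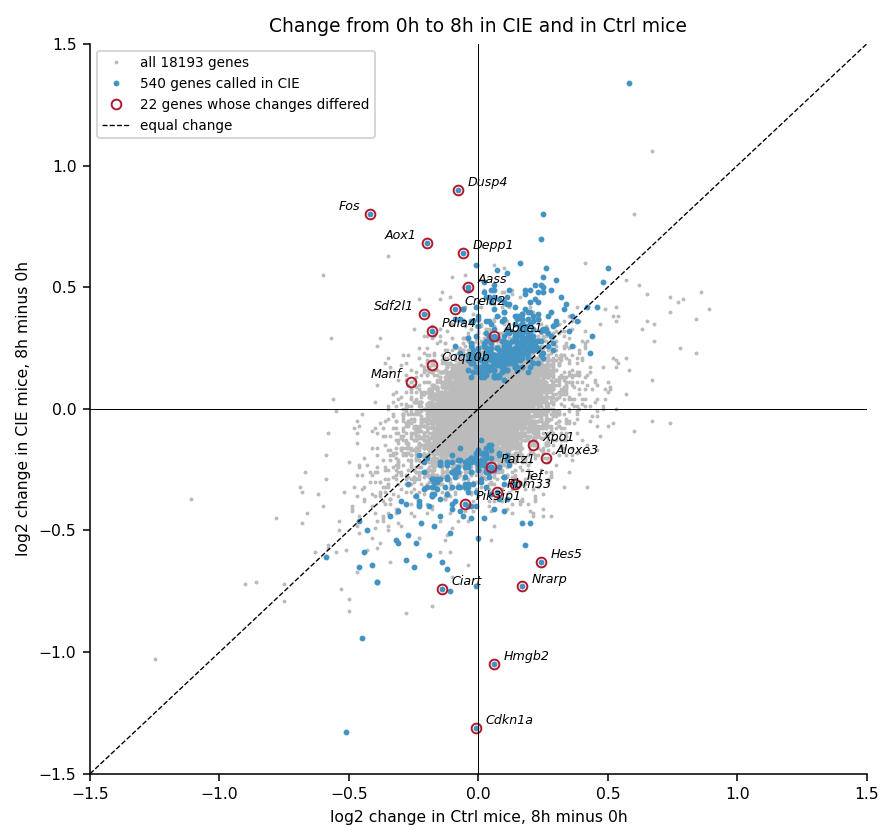
Log2 change from 0h to 8h in CIE mice (vertical axis) against the same change in Ctrl mice (horizontal axis), with 1 point for each of 18193 genes. Blue points are the 540 genes called in CIE mice, circled and named points the 22 genes whose changes differed, and the dashed line marks equal changes. Fos, Dusp4 and Aox1 lie far above the line, and Cdkn1a, Hmgb2, Nrarp and Hes5 far below it.

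By brightest probeset the deepest falls were those of Ada, Cdkn1a and Hmgb2, and a list of glucocorticoid-induced genes fell in part. Of its 30 measured genes, 8 fell (Fkbp5, Sgk3, Cdkn1a, Pdk4, Ddit4, Arrdc2, Klf9 and Nfkbia) and 0 rose, where 0.973% of all genes fell. The list also holds Nr3c1, the receptor gene, and induction of each member by glucocorticoids was not tested. Their median change was -0.239, against 0.0243 over all genes, and in Ctrl mice it was -0.118 with 1 that fell, Sgk1. Without CIE 8h replicate 21 the count was 14 and the median -0.325. Relative to Ctrl mice the list stood at a median of 0.505 at 0h and of 0.361 at 8h.

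Cdkn1a encodes p21, an inhibitor of cyclin-dependent kinases that p53 and the glucocorticoid receptor both induce. It was at 9.92 to 10.60 (median 10.08) at 0h and 8.31 to 9.72 (median 8.84) at 8h. It fell by 1.31, which is 2.48-fold (SE 0.133, adjusted p = 1.47e-08). Every 8h mouse lay below every 0h mouse. The Ctrl change was -0.01, and the changes differed by -1.30 (SE 0.189, adjusted p = 0.000124). CIE mice stood 2.26 above Ctrl at 0h (adjusted p = 1.08e-15) and still 0.96 above at 8h (adjusted p = 1.51e-05). The dimmer probeset of Cdkn1a fell by 1.35 in CIE mice and had a Ctrl change of -0.35 that did not pass (adjusted p = 0.131).

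Fkbp5, a co-chaperone that restrains the glucocorticoid receptor and is induced by it, was at 10.12 to 10.55 (median 10.33) at 0h and 9.75 to 10.09 (median 10.03) at 8h. It fell by 0.37 (SE 0.0791, adjusted p = 0.002). The groups did not overlap, and without CIE 0h replicate 26 the adjusted p was 0.0109. The Ctrl change was 0.11, and the difference of -0.48 did not pass (adjusted p = 0.045). Sgk3, a kinase of the serum and glucocorticoid regulated family, was at 10.15 to 10.69 (median 10.35) at 0h and 9.29 to 10.27 (median 9.52) at 8h. It fell by 0.73 (SE 0.134, adjusted p = 0.000343), with 1 mouse at 8h inside the 0h range. Its Ctrl change was -0.01, and the difference of -0.72 did not pass (adjusted p = 0.107).

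Arrdc2, an arrestin-domain gene, was at 9.37 to 9.91 (median 9.56) at 0h and 7.79 to 9.23 (median 8.75) at 8h and fell by 0.94 (SE 0.156, adjusted p = 8.78e-05). The groups were apart, though the 8h mice spread widely. The Ctrl change was -0.45 (adjusted p = 0.0921), and the difference of -0.49 did not pass (adjusted p = 0.609). Pdk4, a kinase that shuts off pyruvate dehydrogenase in fasting, was at 8.93 to 9.59 (median 9.06) at 0h and 8.12 to 9.33 (median 8.37) at 8h and fell by 0.66 (SE 0.139, adjusted p = 0.00167). Its overlap came from CIE 8h replicate 21, at 9.33 where the next 8h mouse was at 8.56, and without CIE 0h replicate 57 the adjusted p was 0.0102. Ddit4, which restrains mTOR under stress, fell by 0.59 (adjusted p = 0.00022), with a Ctrl change of -0.44. Of 19 genes of FOXO and KLF factors and of fasting fuel use 5 fell (Foxo3, Klf9, Txnip, Arrdc2 and Pdk4) and 0 rose, with a median of -0.179 and a Ctrl median of -0.0241. Klf9, Arrdc2 and Pdk4 are on both lists. Without CIE 8h replicate 21, 7 of the FOXO and KLF list fell, with Foxo3 lost and Klf15, Arrdc3 and Angptl4 gained. Foxo3, a factor active in fasting, fell by 0.24 (adjusted p = 0.00624), a call lost without any of 8 arrays (adjusted p up to 0.0285). Txnip, which limits glucose uptake, fell by 0.44 (SE 0.0902, adjusted p = 0.00126), and the call was lost in the fits of the 24 arrays at 0h and 8h and of the 12 CIE arrays alone (adjusted p = 0.0123 and 0.0258), as were those of Fkbp5 (0.0112 and 0.0127) and Pdk4 (0.0159 and 0.0341).

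Other genes of the glucocorticoid list did not pass. Sgk1, a kinase of ion transport, was at 12.84 to 13.16 (median 12.95) at 0h and 11.99 to 12.82 (median 12.69) at 8h. Its groups did not overlap, but the change of -0.40 (SE 0.131) missed the threshold (adjusted p = 0.0516). In Ctrl mice Sgk1 fell by 0.60 (adjusted p = 0.00766). Plin4, a coat protein of lipid droplets, had a change of -0.59 (SE 0.174, adjusted p = 0.0269) and passed without CIE 8h replicate 21 (-0.70, adjusted p = 0.00954). Its level stood 2.51 above Ctrl at 0h and 2.07 above at 8h. Tsc22d3, which encodes the glucocorticoid-induced leucine zipper, had a change of -0.08 (95% interval -0.24 to 0.08) and stood 0.50 above Ctrl at 0h and 0.61 above at 8h. All 8 genes of the list that fell had means above those of Ctrl at both times as well.

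Ada, the enzyme that turns adenosine into inosine, was at 7.23 to 7.62 (median 7.45) at 0h and 5.53 to 7.00 (median 6.02) at 8h. It fell by 1.33, 2.51-fold (SE 0.161, adjusted p = 3.67e-07), the largest fall among called genes read by their brightest probesets. No 8h mouse reached the lowest 0h mouse. The Ctrl change of -0.51 did not pass (adjusted p = 0.0641), nor did the difference of -0.82 (adjusted p = 0.143). Ada stood 1.48 above Ctrl at 0h (adjusted p = 3.96e-08) and 0.66 above at 8h (adjusted p = 0.0247).

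Hmgb2, a chromatin protein most abundant in dividing cells, was at 8.19 to 8.70 (median 8.44) at 0h and 7.22 to 7.61 (median 7.39) at 8h. It fell by 1.05 (SE 0.0768, adjusted p = 2.2e-12). The groups were far apart, and Ctrl mice lay at 7.20 to 7.57 and 7.25 to 7.78, around the range of the CIE 8h mice. The difference from the Ctrl change was -1.11 (SE 0.109, adjusted p = 2.89e-08). Both of its other probesets fell as well, by 0.38 and 1.37. Of 22 genes of DNA replication and cell division it was the 1 that fell, and Ccnd1, a cyclin that growth signals induce, was the 1 that rose (0.37, SE 0.0801, adjusted p = 0.0022), though not with its probesets averaged (0.27, adjusted p = 0.0283). Of 15 growth arrest and p53 target genes 3 fell (Cdkn1a, Sesn1 and Trp53inp1) and 0 rose, with a median of -0.188 and a Ctrl median of -0.0432, and without CIE 8h replicate 21 Cdkn1c, a further cyclin-dependent kinase inhibitor, made it 4. Sesn1, a stress-induced brake on mTOR, fell by 0.19 (adjusted p = 0.00306) and lost its call without CIE 0h replicate 26 or 57 (adjusted p up to 0.0122). Trp53inp1, a p53 target, fell by 0.38 (adjusted p = 7.98e-05).

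**Figure D2:**
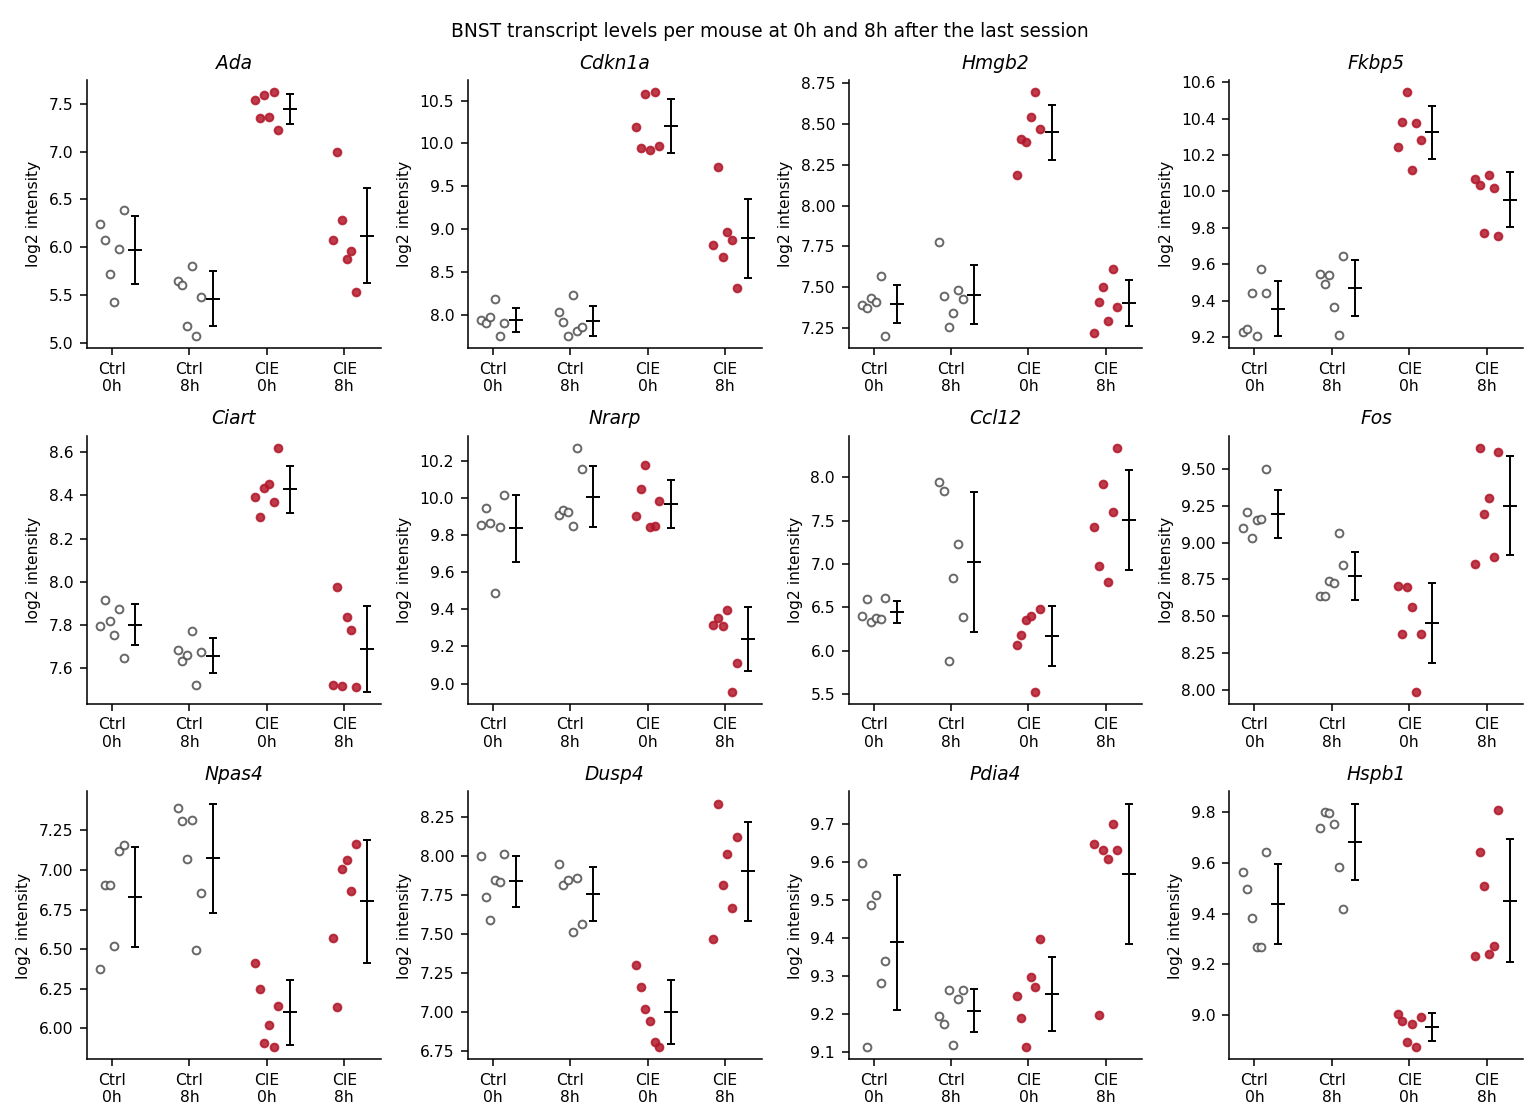
Log2 intensity of 12 genes in each mouse of the Ctrl 0h, Ctrl 8h, CIE 0h and CIE 8h groups, with 1 point per mouse, 6 per group, and the mean and SD beside them. In the CIE groups all 8h mice lie below all 0h mice for Ada, Cdkn1a, Hmgb2, Fkbp5, Ciart and Nrarp and above them for Ccl12, Fos, Dusp4 and Hspb1, while Npas4 and Pdia4 overlap.

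Some genes of neuronal firing and ERK signalling rose. Of 24 immediate early genes, which neurons transcribe within minutes of firing, 3 rose (Fos, Fosl2 and Npas4) and 1 fell (Klf4), with a median of 0.0848 and a Ctrl median of 0.0528. Of 10 measured genes that ERK induces and most of which restrain it in turn, 5 rose (Dusp4, Dusp6, Spry4, Spred2 and Etv5) and 0 fell, where 2.00% of all genes rose. The ERK list had a median of 0.25 and a Ctrl median of 0.0659. Its mean level was 8.252 to 8.431 at 0h and 8.612 to 8.768 at 8h, without overlap. In Ctrl mice it was 8.420 to 8.735 at 0h and 8.551 to 8.757 at 8h. Mean levels of the lists of growth arrest, cytosolic heat shock, NF-kB and chromatin genes did not overlap between CIE groups either. Without CIE 8h replicate 21, 4 genes of the ERK list rose, Spry4 being lost.

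Fos, the activity-induced part of the AP-1 factor, was at 7.99 to 8.71 (median 8.47) at 0h and 8.86 to 9.64 (median 9.25) at 8h. It rose by 0.80, 1.74-fold (SE 0.141, adjusted p = 0.000202). Every 8h mouse was above every 0h mouse. In Ctrl mice its values were 9.03 to 9.50 at 0h and 8.63 to 9.06 at 8h, a change of -0.42 (adjusted p = 0.0849), and the changes differed by 1.21 (SE 0.2, adjusted p = 0.000996). The level of CIE mice minus that of Ctrl mice was -0.74 at 0h (adjusted p = 0.000587) and 0.48 at 8h (adjusted p = 0.0896).

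The promoter of Fos is shown because Fos was the immediate early gene whose change differed from that in Ctrl mice and because it holds the core letters of the cAMP response element, TGACG, which CREB binds. Promoters here are from RefSeq (GRCm38.p6), 250 bases long up to the gene's start, 5′ to 3′ on the strand of the gene, with the matched letters in capitals. The sequence is chr12:85473640-85473889 on the plus strand, and the matches begin 129 and 66 bases before the start.
Fos: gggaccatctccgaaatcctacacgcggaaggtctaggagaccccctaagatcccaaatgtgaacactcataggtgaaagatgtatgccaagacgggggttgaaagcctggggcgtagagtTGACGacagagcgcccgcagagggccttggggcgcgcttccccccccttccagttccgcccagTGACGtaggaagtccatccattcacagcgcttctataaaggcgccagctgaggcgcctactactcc
Counting both strands and windows from 250 bases before to 50 after the start, TGACG is in 26.5% of the 18109 windows of tested genes, in 31.7% of those of genes that rose and in 22% of those of genes that fell. The full element TGACGTCA, which contains it, is in 2.49%. Windows were found for 14452 of the 18193 genes. Among the 4 called immediate early genes Fos, Npas4 and Klf4 hold it, and Klf4 fell. A match is a description and not a site shown to be bound.

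Fosl2, a Fos relative that pairs with Jun, was at 6.53 to 6.92 (median 6.72) at 0h and 7.32 to 7.77 (median 7.52) at 8h and rose by 0.80 (SE 0.112, adjusted p = 5.34e-06). Its groups were apart, and the Ctrl change was 0.25. Npas4, a factor that calcium entry switches on in neurons, was at 5.88 to 6.41 (median 6.08) at 0h and 6.14 to 7.16 (median 6.94) at 8h and rose by 0.70 (SE 0.167, adjusted p = 0.00566). Its groups overlapped, and with any of 8 of the 12 arrays left out the call was lost (adjusted p up to 0.022). Klf4, a zinc finger factor, fell by 0.45 (SE 0.105, adjusted p = 0.00489), a call lost without CIE 0h replicate 57 or 67 or CIE 8h replicate 15, 40 or 41 (adjusted p up to 0.0224). Egr1, a factor of synaptic activity, had a change of 0.46 (SE 0.165, adjusted p = 0.0843), and Arc, a synaptic scaffold, one of 0.37 (SE 0.173, adjusted p = 0.212). Fosb (0.10), Junb (-0.19) and Nr4a1 (0.34) did not pass either.

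Dusp4, a nuclear phosphatase that switches off ERK, was at 6.77 to 7.30 (median 6.98) at 0h and 7.46 to 8.33 (median 7.91) at 8h. It rose by 0.90, 1.87-fold (SE 0.103, adjusted p = 1.24e-07). The groups did not overlap. The Ctrl change was -0.08, and the changes differed by 0.98 (SE 0.146, adjusted p = 0.00019). The level relative to Ctrl was -0.83 at 0h (adjusted p = 5.35e-07) and 0.14 at 8h (adjusted p = 0.712). Dusp6, the cytoplasmic ERK phosphatase, was at 9.07 to 9.34 (median 9.28) at 0h and 9.66 to 10.02 (median 9.79) at 8h and rose by 0.57 (SE 0.0734, adjusted p = 1.26e-06). Its groups were apart too, and the difference from Ctrl of 0.50 did not pass (adjusted p = 0.0193).

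Spry4, an inhibitor of receptor tyrosine kinase signalling, rose by 0.49 (SE 0.112, adjusted p = 0.00416), which did not hold without CIE 8h replicate 21 (0.45, adjusted p = 0.0131) or 69 or CIE 0h replicate 26, 57 or 67 (adjusted p up to 0.0156). Etv5, an ETS factor downstream of ERK, was at 9.68 to 10.00 (median 9.87) at 0h and 9.89 to 10.56 (median 10.38) at 8h and rose by 0.49 (SE 0.0918, adjusted p = 0.000393). Its overlap came from CIE 8h replicate 21, at 9.89 where the next 8h mouse was at 10.36, and with the probesets of Etv5 averaged the change was 0.15 and did not pass (adjusted p = 0.614). Spred3, a further inhibitor of Ras and ERK, was among the 12 largest rises. It was at 6.85 to 7.37 (median 7.10) at 0h and 7.53 to 7.91 (median 7.65) at 8h and rose by 0.60 (SE 0.0748, adjusted p = 7.35e-07), without overlap. Vgf, a secreted peptide precursor that neurotrophins induce, was at 10.66 to 10.96 (median 10.87) at 0h and 11.05 to 11.42 (median 11.22) at 8h and rose by 0.38 (SE 0.0758, adjusted p = 0.00105), again without overlap, and missed the threshold in the fit of the 24 arrays at 0h and 8h (adjusted p = 0.0158). It was the 1 that passed of 8 neurotrophin genes, and Bdnf had a change of 0.31 (SE 0.141, adjusted p = 0.189).

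Some genes of protein folding rose in the endoplasmic reticulum (ER) and in the cytosol. Of 25 ER folding and stress genes 5 rose (Pdia4, Creld2, Sdf2l1, Dnajb11 and Sel1l) and 0 fell, where 2.00% of all genes rose. The ER list had a median of 0.0643 and a Ctrl median of -0.0547. Of 22 cytosolic heat shock genes 4 rose (Hspb1, Hsph1, Dnaja1 and Chordc1) and 0 fell, with a median of 0.122 and a Ctrl median of 0.0854, and in Ctrl mice 2 rose. The change differed from that in Ctrl mice for 4 ER genes (Pdia4, Creld2, Sdf2l1 and Manf). It did so by limma for 0 heat shock genes, with 6 at an unadjusted p under 0.05. Without CIE 8h replicate 21, 7 heat shock genes and 5 ER genes rose.

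Creld2, an ER protein secreted under stress, was at 8.32 to 8.62 (median 8.41) at 0h and 8.66 to 9.09 (median 8.86) at 8h. It rose by 0.41 (SE 0.0703, adjusted p = 0.000113), without overlap. The Ctrl change was -0.09, and the difference of 0.51 just passed (SE 0.0994, adjusted p = 0.00994). Sdf2l1, a partner of the chaperone BiP, was at 8.53 to 8.93 (median 8.60) at 0h and 8.77 to 9.45 (median 9.00) at 8h and rose by 0.39 (SE 0.0763, adjusted p = 0.000785). Its groups overlapped, and the difference from Ctrl was 0.60 (adjusted p = 0.00342). Pdia4, a disulfide isomerase, was at 9.11 to 9.40 (median 9.26) at 0h and 9.20 to 9.70 (median 9.63) at 8h and rose by 0.32 (SE 0.0648, adjusted p = 0.00123). All 8h mice were at 9.61 or more except replicate 21, at 9.20 inside the 0h range. The difference from Ctrl was 0.50 (adjusted p = 0.00448). In the fits of the 24 arrays at 0h and 8h and of the 12 CIE arrays alone the rises of Sdf2l1 (adjusted p = 0.0216 and 0.0416) and Pdia4 (0.02 and 0.0257) did not pass.

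The Ctrl changes of these ER genes were negative, at -0.18 for Pdia4 and -0.21 for Sdf2l1, neither past the threshold. Manf, a secreted survival factor, had a CIE change of 0.11 that did not pass and a Ctrl change of -0.26 that did (adjusted p = 0.00246), and these differed by 0.38 (adjusted p = 0.00387). Both arms thus contributed to the differences. Dnajb11, a co-chaperone of BiP, was at 9.89 to 9.99 (median 9.98) at 0h and 10.10 to 10.28 (median 10.19) at 8h and rose by 0.22 (SE 0.0364, adjusted p = 6.25e-05), without overlap. Hspa5, which encodes BiP, had a change of 0.13 (SE 0.0561, adjusted p = 0.15). The stress factors Xbp1 (-0.01), Atf4 (0.06) and Ddit3 (0.11) did not pass.

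The promoter of Creld2 is shown because it alone among the 5 ER genes that rose holds the ER stress response element, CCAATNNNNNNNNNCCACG, which was searched after the values had been seen. It is chr15:88819396-88819645 on the plus strand, and the match begins 126 bases before the start and reads on the opposite strand.
Creld2: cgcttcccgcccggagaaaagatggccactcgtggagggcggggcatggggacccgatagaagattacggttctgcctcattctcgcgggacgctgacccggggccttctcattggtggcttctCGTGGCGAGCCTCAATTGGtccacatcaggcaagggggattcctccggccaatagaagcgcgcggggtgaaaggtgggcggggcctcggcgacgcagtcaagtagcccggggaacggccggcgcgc
The element is in 20 of the 18109 windows of tested genes (0.11%) and in 1 of the 356 windows of genes that rose (0.281%). Of the genes that also hold it, Hspa5 (0.13), Hsp90b1 (0.20), Calr (0.07) and Pdia6 (0.15) did not pass.

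Hspb1, a small heat shock protein, was at 8.87 to 9.00 (median 8.97) at 0h and 9.23 to 9.81 (median 9.39) at 8h. It rose by 0.50, 1.42-fold (SE 0.0795, adjusted p = 4.16e-05). All 8h mice were above the 0h mice, which lay close together. Ctrl mice had a change of 0.25 (adjusted p = 0.0697), and the level relative to Ctrl was -0.49 at 0h (adjusted p = 5.85e-05) and -0.23 at 8h (adjusted p = 0.171). Hsph1, which helps HSP70 to release its clients, was at 11.68 to 11.80 (median 11.71) at 0h and 11.90 to 12.03 (median 11.97) at 8h and rose by 0.25 (SE 0.037, adjusted p = 1.78e-05). It rose in Ctrl mice as well, by 0.18 (adjusted p = 0.00528). Chordc1, an HSP90 co-chaperone, was at 10.42 to 10.68 (median 10.55) at 0h and 10.77 to 11.12 (median 10.91) at 8h and rose by 0.37 (SE 0.053, adjusted p = 9.07e-06), without overlap. Dnaja1, an HSP70 co-chaperone, rose by 0.13 (SE 0.0309, adjusted p = 0.00403), and the call was lost without CIE 0h replicate 43, 57 or 67 or CIE 8h replicate 69 (adjusted p up to 0.0157).

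All 4 heat shock genes that rose hold the heat shock element, searched as the palindrome GAANNTTC, and those with a match well before the start are shown. Hspb1 is at chr5:135887669-135887918 on the plus strand, with matches 117 and 97 bases before the start. Dnaja1 is at chr4:40722218-40722467 on the plus strand, with a match 124 bases before it. Dnaja1 has 3 windows, and the match is in 1 of them.
Hspb1: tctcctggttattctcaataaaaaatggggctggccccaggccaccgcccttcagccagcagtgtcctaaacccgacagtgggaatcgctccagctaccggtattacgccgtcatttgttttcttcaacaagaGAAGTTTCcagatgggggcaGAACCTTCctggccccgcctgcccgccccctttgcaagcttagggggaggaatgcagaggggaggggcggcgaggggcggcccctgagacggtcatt
Dnaja1: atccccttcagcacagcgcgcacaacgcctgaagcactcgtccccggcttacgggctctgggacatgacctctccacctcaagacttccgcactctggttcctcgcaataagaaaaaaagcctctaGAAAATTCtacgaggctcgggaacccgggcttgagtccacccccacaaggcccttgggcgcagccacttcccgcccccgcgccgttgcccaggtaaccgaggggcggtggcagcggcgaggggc
The matches of Hsph1 lie after the start and those of Chordc1 beside it. The letters are in 5 of the 7 windows of these 4 genes (71.4%), in 6.33% of the windows of tested genes, in 6.18% of those of genes that rose and in 3.3% of those of genes that fell. The share among heat shock genes that did not pass was not computed, so the 71.4% cannot be tied to the rise.

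The stress-inducible HSP70 gene Hspa1b had a change of 0.40 in CIE mice (SE 0.151, adjusted p = 0.0966) and rose by 0.74 in Ctrl mice (adjusted p = 0.00497). The difference of -0.34 did not pass (adjusted p = 0.855). Hspa1a and Hspa1b are nearly identical, so their probesets may read each other's RNA. Cirbp, an RNA-binding protein that cold induces, was at 10.76 to 11.15 (median 11.01) at 0h and 10.41 to 10.87 (median 10.64) at 8h and fell by 0.35 (SE 0.0687, adjusted p = 0.000667). Its groups overlapped, its call was lost in the fit of the 12 CIE arrays alone (adjusted p = 0.025), and the Ctrl change was -0.18 (adjusted p = 0.119).

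Clock genes changed in both directions. Of 22 circadian clock and output genes 5 fell (Nr1d1, Nr1d2, Dbp, Tef and Ciart) and 2 rose (Per2 and Nfil3), where 0.973% of all genes fell and 2.00% rose. In Ctrl mice 0 rose and 0 fell by limma, with 4 at an unadjusted p under 0.05. The changes of Ciart and Tef differed from those in Ctrl mice.

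Ciart, a repressor of the CLOCK and BMAL1 pair, was at 8.30 to 8.62 (median 8.41) at 0h and 7.51 to 7.97 (median 7.65) at 8h. It fell by 0.74 (SE 0.0773, adjusted p = 2.3e-08). The groups did not overlap. In Ctrl mice the change was -0.14, and the difference of -0.59 passed (SE 0.109, adjusted p = 0.00448). Its level stood 0.63 above Ctrl at 0h (adjusted p = 5.31e-07) and 0.03 from it at 8h (adjusted p = 0.953). Dbp, a clock output factor, was at 11.39 to 11.93 (median 11.52) at 0h and 10.86 to 11.32 (median 11.03) at 8h and fell by 0.51 (SE 0.084, adjusted p = 6.66e-05), without overlap. Tef, a close relative of Dbp, fell by 0.31 (adjusted p = 0.00019), and with a Ctrl change of 0.14 the difference was -0.45 (adjusted p = 0.00182). Nr1d1, the nuclear receptor REV-ERB alpha, fell by 0.32 (SE 0.0698, adjusted p = 0.00243), with a Ctrl change of -0.18, and without CIE 0h replicate 67 the adjusted p was 0.0142, while the fits of 24 and 12 arrays gave 0.0181 and 0.0272.

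Per2, a core clock repressor, was at 8.13 to 8.50 (median 8.34) at 0h and 8.60 to 8.92 (median 8.71) at 8h and rose by 0.40 (SE 0.0739, adjusted p = 0.000316). Its groups were apart, though with its probesets averaged the change was 0.19 and did not pass (adjusted p = 0.0201). Ctrl mice had a change of 0.28 (adjusted p = 0.0255), and the difference was 0.12 (SE 0.104). Nfil3, a repressor that opposes Dbp, rose by 0.37 (SE 0.0895, adjusted p = 0.00679), a call lost without CIE 8h replicate 21 (0.29, adjusted p = 0.0334) or any of 7 other arrays. Arntl, which encodes BMAL1, had a change of 0.15 (adjusted p = 0.163) and Per1 one of -0.25 (adjusted p = 0.0983).

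The promoters of Ciart and Tef are shown because both hold the E-box CACGTG, a palindrome that CLOCK and BMAL1 bind, and because these were the clock genes whose changes differed from Ctrl. Ciart is at chr3:95882229-95882478 on the minus strand with 3 matches, the first 116 bases before the start. Tef is at chr15:81802423-81802672 on the plus strand with a match 127 bases before the start.
Ciart: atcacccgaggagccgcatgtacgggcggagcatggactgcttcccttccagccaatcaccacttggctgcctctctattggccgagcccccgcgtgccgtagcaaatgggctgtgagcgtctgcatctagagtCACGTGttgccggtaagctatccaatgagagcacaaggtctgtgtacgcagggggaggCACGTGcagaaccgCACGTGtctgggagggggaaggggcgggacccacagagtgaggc
Tef: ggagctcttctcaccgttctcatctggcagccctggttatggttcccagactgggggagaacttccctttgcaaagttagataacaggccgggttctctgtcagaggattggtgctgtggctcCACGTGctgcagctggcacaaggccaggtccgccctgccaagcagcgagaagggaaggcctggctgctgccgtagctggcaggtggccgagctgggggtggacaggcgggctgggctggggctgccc
The E-box is in 3 of 7 windows of called clock genes (42.9%), all of Ciart and Tef. The share among clock genes that did not pass was not computed, so the 42.9% cannot be tied to the calls. It is in 8.72% of the windows of tested genes, in 13.7% of those of genes that fell and in 9.27% of those of genes that rose.

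Among Notch genes it was targets that passed. Of 21 Notch receptors, ligands and targets 3 fell (Hes5, Hes6 and Nrarp) and 0 rose, where 0.973% of all genes fell. The Notch list had a median of -0.0428 and a Ctrl median of 0.0269. Nrarp, a Notch target that restrains the Notch complex, was at 9.85 to 10.18 (median 9.94) at 0h and 8.96 to 9.39 (median 9.31) at 8h. It fell by 0.73 (SE 0.0832, adjusted p = 1.23e-07). The groups were well apart. In Ctrl mice the change was 0.17, and the changes differed by -0.90 (SE 0.118, adjusted p = 2.77e-05). The level relative to Ctrl was 0.13 at 0h (adjusted p = 0.471) and -0.77 at 8h (adjusted p = 7.08e-08), so that Nrarp differed from Ctrl at 8h, where Dusp4 and Ciart differed at 0h.

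Hes5, a repressor that Notch induces in progenitors and glia, was at 7.42 to 7.92 (median 7.54) at 0h and 6.47 to 7.57 (median 6.93) at 8h and fell by 0.63 (SE 0.111, adjusted p = 0.00019). All but 1 of the 8h mice lay below the 0h range, and in the fit of the 12 CIE arrays alone the call was lost (adjusted p = 0.0206). Ctrl mice had a change of 0.24, and the changes differed by -0.87 (SE 0.157, adjusted p = 0.00342). Relative to Ctrl, Hes5 stood at -0.90 at 0h (adjusted p = 4.7e-07) and at -1.78 at 8h (adjusted p = 3.89e-15). Hes6 fell by 0.24 (SE 0.0581, adjusted p = 0.00608), a call lost without any of 8 arrays (adjusted p up to 0.0193). Hes1, a further target, had a change of 0.20 (adjusted p = 0.0862), and Notch1 (0.02), Notch2 (-0.10) and Notch3 (-0.15) did not pass.

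**Figure D3:**
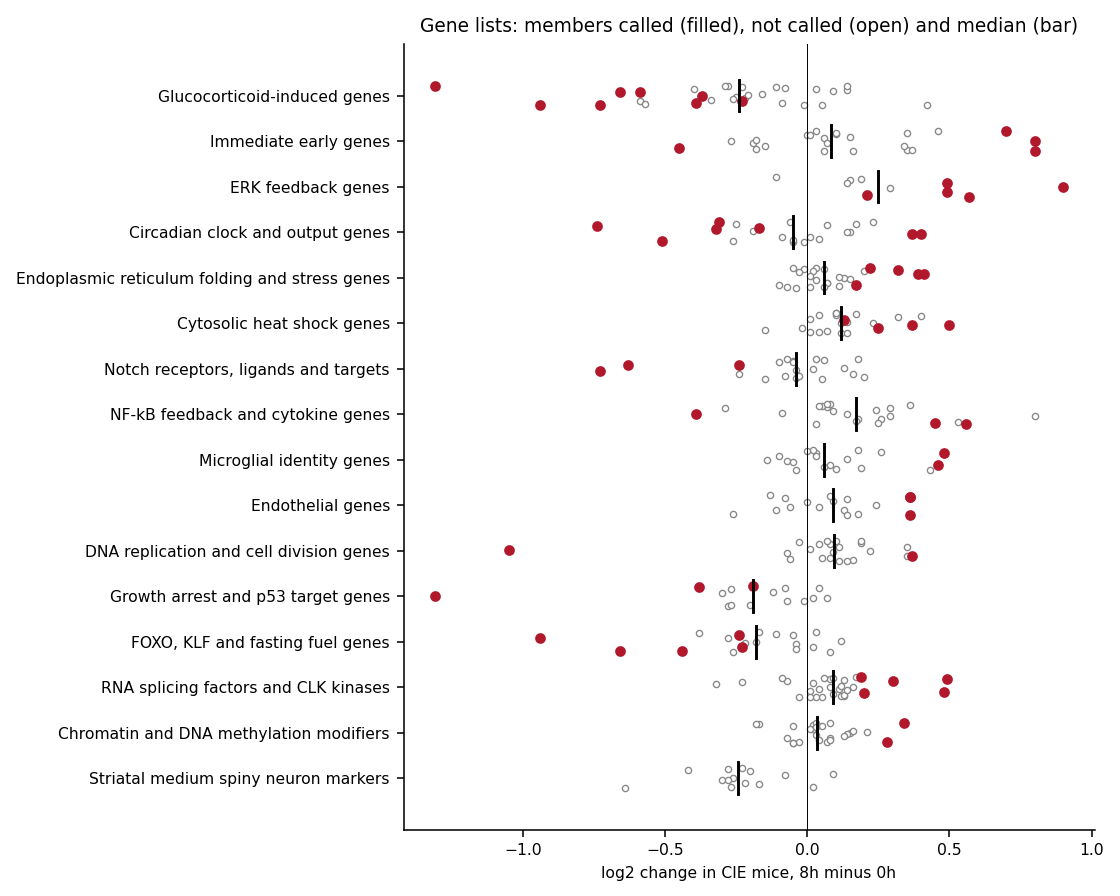
Log2 change from 0h to 8h in CIE mice for each measured gene of 16 lists (horizontal axis), with filled points for called genes, open points for the others and a bar at each list's median. The glucocorticoid-induced genes lie mostly below 0 (median -0.239) and the ERK feedback genes mostly above (median 0.25), and the striatal markers have a median of -0.245 with no called gene.

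Few immune genes passed. Ccl12, a chemokine that attracts monocytes, was at 5.53 to 6.48 (median 6.27) at 0h and 6.79 to 8.34 (median 7.52) at 8h. It rose by 1.34, 2.54-fold (SE 0.233, adjusted p = 0.000153), the largest rise among called genes read by their brightest probesets. The groups did not overlap, although the 8h mice were widely spread, as were the Ctrl 8h mice at 5.88 to 7.95. Neither the Ctrl change of 0.58 (adjusted p = 0.157) nor the difference of 0.77 (adjusted p = 0.567) passed. Of 23 NF-kB feedback and cytokine genes 2 rose (Il1a and Icam1) and 1 fell, with a median of 0.173 and a Ctrl median of 0.067, and without CIE 8h replicate 21 Cxcl10 took the place of Icam1 among the rises. Il1a, an inflammatory cytokine, rose by 0.45 (SE 0.089, adjusted p = 0.000823), which did not pass in the fits of the 24 arrays at 0h and 8h and of the 12 CIE arrays alone (adjusted p = 0.0168 and 0.0178). Icam1, an adhesion molecule for leukocytes, was at 5.53 to 6.18 (median 5.89) at 0h and 6.08 to 6.86 (median 6.47) at 8h, with overlap. It rose by 0.56 (SE 0.14, adjusted p = 0.00821), a call lost without any of 9 arrays (adjusted p up to 0.0368). Nfkbia, the inhibitor of NF-kB that glucocorticoids also induce, was at 12.14 to 12.55 (median 12.33) at 0h and 11.77 to 12.14 (median 11.91) at 8h and fell by 0.39 (SE 0.0832, adjusted p = 0.00205), with an adjusted p of 0.0112 without CIE 0h replicate 57. Its Ctrl change was -0.23 (adjusted p = 0.11). Of its 4 dimmer probesets 3 fell in CIE mice. Those with CIE changes of -0.54 and -0.51 fell in Ctrl mice too (-0.42 and -0.53, adjusted p = 0.00901 and 0.0064).

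Of 25 interferon-stimulated genes 0 rose and 0 fell by limma, with 3 at an unadjusted p under 0.05, a median of 0.145 and a Ctrl median of 0.21. Of 12 genes of MHC class I presentation 0 rose and 0 fell by limma, with 0 at an unadjusted p under 0.05. H2-K1, a class I heavy chain, had a change of -0.01 (95% interval -0.39 to 0.37) and stood 1.06 above Ctrl at 0h (adjusted p = 0.000203) and 0.78 above at 8h (adjusted p = 0.0212). Of 19 microglial identity genes 2 rose (Fcrls and Olfml3) and 0 fell, with a median of 0.0609. Fcrls, a microglial surface receptor, was at 7.15 to 7.55 (median 7.46) at 0h and 7.72 to 8.15 (median 7.82) at 8h and rose by 0.46 (SE 0.0801, adjusted p = 0.000149). Its groups were apart, and it stayed low against Ctrl, at -1.30 at 0h and -0.86 at 8h (adjusted p = 1.27e-09). Olfml3 rose by 0.48 (SE 0.113, adjusted p = 0.00482), a call lost without CIE 8h replicate 21 (0.44, adjusted p = 0.0177) or any of 6 other arrays. The defining microglial genes Cx3cr1 (-0.14), P2ry12 (0.03), Csf1r (-0.07) and Aif1 (0.19) did not pass.

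Some genes of vessels and myelin changed. Of 17 endothelial genes 3 rose (Kdr, Tek and Emcn) and 0 fell, with a median of 0.0927, and without CIE 8h replicate 21 Kdr rose and Slc2a1, the glucose transporter, fell. Tek, the angiopoietin receptor, rose by 0.36 (SE 0.0829, adjusted p = 0.00444) and Emcn, a surface sialomucin, by 0.36 (SE 0.0801, adjusted p = 0.00318), and without CIE 8h replicate 21 their adjusted p were 0.0226 and 0.0162. Kdr, the VEGF receptor, was at 7.65 to 7.80 (median 7.70) at 0h and 7.87 to 8.26 (median 8.05) at 8h and rose by 0.36 (SE 0.0681, adjusted p = 0.000527), without overlap. Pecam1 (-0.06), Cdh5 (0.13) and Cldn5 (0.24), which define the endothelium, did not pass. Rhoj, a GTPase of endothelial cells, was at 8.38 to 8.87 (median 8.70) at 0h and 7.76 to 8.56 (median 7.96) at 8h and fell by 0.65 (SE 0.103, adjusted p = 4.06e-05). It fell in Ctrl mice as well, by 0.46 (adjusted p = 0.00901). Opalin, a membrane protein of myelinating oligodendrocytes, was at 10.86 to 11.11 (median 10.95) at 0h and 10.00 to 10.40 (median 10.27) at 8h. It fell by 0.71 (SE 0.0844, adjusted p = 2.5e-07), without overlap, and in Ctrl mice by 0.39 (adjusted p = 0.00772), but with its probesets averaged the CIE change was -0.33 and did not pass (adjusted p = 0.0418). It was the 1 that fell of 18 oligodendrocyte genes, among which Mbp (-0.04), Mobp (-0.08) and Cnp (-0.09) did not pass. Of 12 genes of oligodendrocyte precursors 1 rose, Tmem100, by 0.39 (SE 0.0609, adjusted p = 3.38e-05), or 0.19 with its probesets averaged, which did not pass (adjusted p = 0.0161). By limma none of 18 astrocyte genes, 13 mural cell genes and 17 genes of progenitors and immature neurons passed, with 4, 3 and 2 at an unadjusted p under 0.05.

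Among other large rises, Aox1, an aldehyde oxidase, was at 8.94 to 9.16 (median 9.05) at 0h and 9.42 to 10.07 (median 9.75) at 8h. It rose by 0.68 (SE 0.0872, adjusted p = 1.26e-06), without overlap. In Ctrl mice the change was -0.20, and the changes differed by 0.87 (SE 0.123, adjusted p = 8.54e-05). Its level relative to Ctrl was -0.33 at 0h (adjusted p = 0.0153) and 0.54 at 8h (adjusted p = 0.000157). Depp1, a FOXO target, was at 6.89 to 7.21 (median 7.00) at 0h and 7.42 to 7.77 (median 7.70) at 8h and rose by 0.64 (SE 0.0874, adjusted p = 4e-06). Its groups were apart, and the difference from Ctrl was 0.70 (adjusted p = 0.00295). Aass, which begins the breakdown of lysine, was at 7.29 to 7.51 (median 7.37) at 0h and 7.75 to 7.96 (median 7.90) at 8h and rose by 0.50 (SE 0.0651, adjusted p = 1.59e-06). It differed from the Ctrl change by 0.54 (adjusted p = 0.00182) and stood 0.08 from Ctrl at 0h and 0.62 above it at 8h (adjusted p = 3.55e-08).

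Ddo, which oxidises D-aspartate, rose by 0.59 (SE 0.0959, adjusted p = 5.78e-05). Cep41, a centrosomal protein, rose by 0.58 (SE 0.0945, adjusted p = 6.19e-05). Slc39a2, a zinc importer, rose by 0.58 (SE 0.118, adjusted p = 0.00118), with a Ctrl change of 0.50 (adjusted p = 0.0128), and missed the threshold in the fit of the 24 arrays at 0h and 8h (adjusted p = 0.0154). P4ha1, a collagen prolyl hydroxylase, rose by 0.43 (SE 0.0537, adjusted p = 8.15e-07) as the 1 of 19 hypoxia and glycolysis genes that passed, but its dimmer probeset had a change of -0.40 that did not pass. That list had 11 genes at an unadjusted p under 0.05, and without CIE 8h replicate 21 Slc2a1 fell in it. By limma none of 12 enzymes of ethanol and its products passed by its brightest probeset, with 2 at an unadjusted p under 0.05. Adh1, an alcohol dehydrogenase of the kind pyrazole blocks, had a change of 0.23 (SE 0.0908, adjusted p = 0.114), and Aldh2, the mitochondrial acetaldehyde dehydrogenase, one of -0.02 (95% interval -0.15 to 0.11). A dimmer probeset of Aldh2 fell by 0.21 (adjusted p = 0.00974). None of 18 antioxidant genes, 6 metallothionein and zinc genes or 30 proteasome genes passed by limma, with 3, 0 and 4 at an unadjusted p under 0.05.

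Among other large falls, Zfand4, a zinc finger gene, was at 8.82 to 9.45 (median 8.97) at 0h and 7.77 to 8.98 (median 8.29) at 8h and fell by 0.75 (SE 0.121, adjusted p = 6.21e-05), a call lost in the fit of the 12 CIE arrays alone (adjusted p = 0.0147). Fyttd1, an adaptor of mRNA export, fell by 0.71 (SE 0.177, adjusted p = 0.00836), a call lost without any of 9 arrays (adjusted p up to 0.0345). Its Ctrl change was -0.39 (adjusted p = 0.223), and the difference of -0.32 did not pass (adjusted p = 0.933). Sc5d, an enzyme late in cholesterol synthesis, fell by 0.33 (SE 0.0527, adjusted p = 4.89e-05) as the 1 of 21 genes of cholesterol and fatty acid synthesis that passed, and with its probesets averaged its change was -0.09 and did not pass (adjusted p = 0.23). Gabrr2, a GABA receptor subunit, was at 7.02 to 7.71 (median 7.41) at 0h and 5.99 to 7.49 (median 6.73) at 8h and fell by 0.65 (SE 0.16, adjusted p = 0.00732). Its groups overlapped, and its call was lost without any of 8 arrays (adjusted p up to 0.0371).

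Of 30 splicing factors and CLK kinases 5 rose (Srsf2, Srsf3, Tra2a, Sfpq and Luc7l) and 0 fell, with a median of 0.0873 and a Ctrl median of 0.0822. Sfpq, a nuclear RNA-binding protein, was at 10.46 to 10.67 (median 10.59) at 0h and 10.87 to 11.17 (median 11.09) at 8h and rose by 0.49 (SE 0.0569, adjusted p = 1.72e-07). It also rose in Ctrl mice, by 0.28 (adjusted p = 0.00462). The probesets of these genes did not move as one. Of 97 dimmer probesets, of 24 of the genes, 14 rose, 1 fell and 42 had a negative change, with a median of 0.0402. None of the 5 dimmer probesets of Tra2a passed, while its brightest rose by 0.48. With all probesets of a gene averaged, the calls of Sfpq, Tra2a, Luc7l and Srsf2 were lost (adjusted p = 0.41, 0.742, 0.628 and 0.104). Of 26 chromatin modifiers 2 rose, Hdac9, a histone deacetylase, by 0.34 (adjusted p up to 0.015 with 1 array left out) and Smarce1, a subunit of chromatin remodelling complexes, by 0.28. Smarce1 also rose in Ctrl mice, by 0.20. Neither passed with its probesets averaged (adjusted p = 0.404 and 0.512).

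Neuronal signalling genes mostly did not pass. By limma none passed of 14 genes of corticotropin-releasing hormone and stress peptides, 8 opioid genes, 24 glutamate receptor and postsynaptic genes, 13 monoamine receptor genes, 21 potassium channel genes, 19 sodium and calcium channel genes and 20 synaptic vesicle genes. At an unadjusted p under 0.05 these lists held 3, 0, 1, 1, 2, 5 and 4 genes. Vgf was the 1 of 19 neuropeptide genes that rose and Gabrr2 the 1 of 18 GABA genes that fell. Crh, which encodes corticotropin-releasing hormone, was at 9.96 to 10.76 (median 10.49) at 0h and 9.28 to 10.85 (median 10.57) at 8h, with a change of -0.06 (95% interval -0.45 to 0.34). Its groups lay over each other. Ctrl mice had a change of 0.74 (adjusted p = 0.0283), and the difference of -0.79 did not pass (adjusted p = 0.354). Npy had a change of 0.01 (95% interval -0.29 to 0.31) and Pdyn, the dynorphin precursor, one of -0.10 (95% interval -0.48 to 0.28). The intervals of Crh and Pdyn reach a change of the size seen in Fkbp5, which was thus not detectable for them with 6 mice per group.

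The 14 measured striatal markers had a median change of -0.245 in CIE mice and of 0.124 in Ctrl mice, and 2 of them had a mean that was higher at 8h. By limma 0 rose and 0 fell, with 1 at an unadjusted p under 0.05. Ppp1r1b, the phosphatase inhibitor DARPP-32 of these neurons, was at 9.60 to 11.03 (median 10.23) at 0h and 9.05 to 10.67 (median 9.49) at 8h, with a change of -0.64 (SE 0.312, adjusted p = 0.238). The part of striatal tissue in the results on neuronal genes was not tested. Of 14 choroid plexus genes and 3 red blood cell genes none passed by limma, with 0 and 2 at an unadjusted p under 0.05 and medians of 0.00646 and 0.168.

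Smaller changes that differed between the arms were those of Rbm33, an RNA-binding protein, Xpo1, the main nuclear exporter, and Aloxe3, a lipoxygenase. Rbm33 fell by 0.34 (SE 0.0402, adjusted p = 2.21e-07) with a Ctrl change of 0.07, a difference of -0.41 (adjusted p = 8.54e-05). Its probesets disagreed, and 1 of the 2 others rose by 0.34 (adjusted p = 0.00015). Xpo1 had a CIE change of -0.15 that did not pass (adjusted p = 0.0117) although its groups did not overlap. It rose by 0.21 in Ctrl mice (adjusted p = 0.00246), and the difference was -0.35 (adjusted p = 0.000307). Aloxe3 had a CIE change of -0.20 that did not pass (adjusted p = 0.0189) and rose by 0.26 in Ctrl mice (adjusted p = 0.00598), a difference of -0.46 (adjusted p = 0.00166). Without CIE 8h replicate 21 the CIE change of Aloxe3 passed (-0.24, adjusted p = 0.00482). Relative to Ctrl, Xpo1 stood at 0.23 at 0h and -0.12 at 8h, and Aloxe3 at 0.42 and -0.04.

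The groups killed at 72h and 7d place the 8h levels in the longer course. They are given as means with SD and were not tested here. Cdkn1a was at 10.20 ± 0.31 in CIE mice at 0h, 8.89 ± 0.47 at 8h and 7.72 ± 0.17 at 72h (n = 6 each), with Ctrl means between 7.93 and 8.01 at all 4 times. Its mean was thus above all Ctrl means at 8h and below them at 72h. Hmgb2 was at 7.40 ± 0.14 at 8h and 7.61 ± 0.09 at 72h, so that its mean was already near the later ones at 8h. Nrarp was at 9.24 ± 0.17 at 8h and 10.27 ± 0.09 at 72h in CIE mice and at 10.33 ± 0.15 in Ctrl mice at 72h. Its 8h mean was thus the lowest of all 8 groups.

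**Figure D4:**
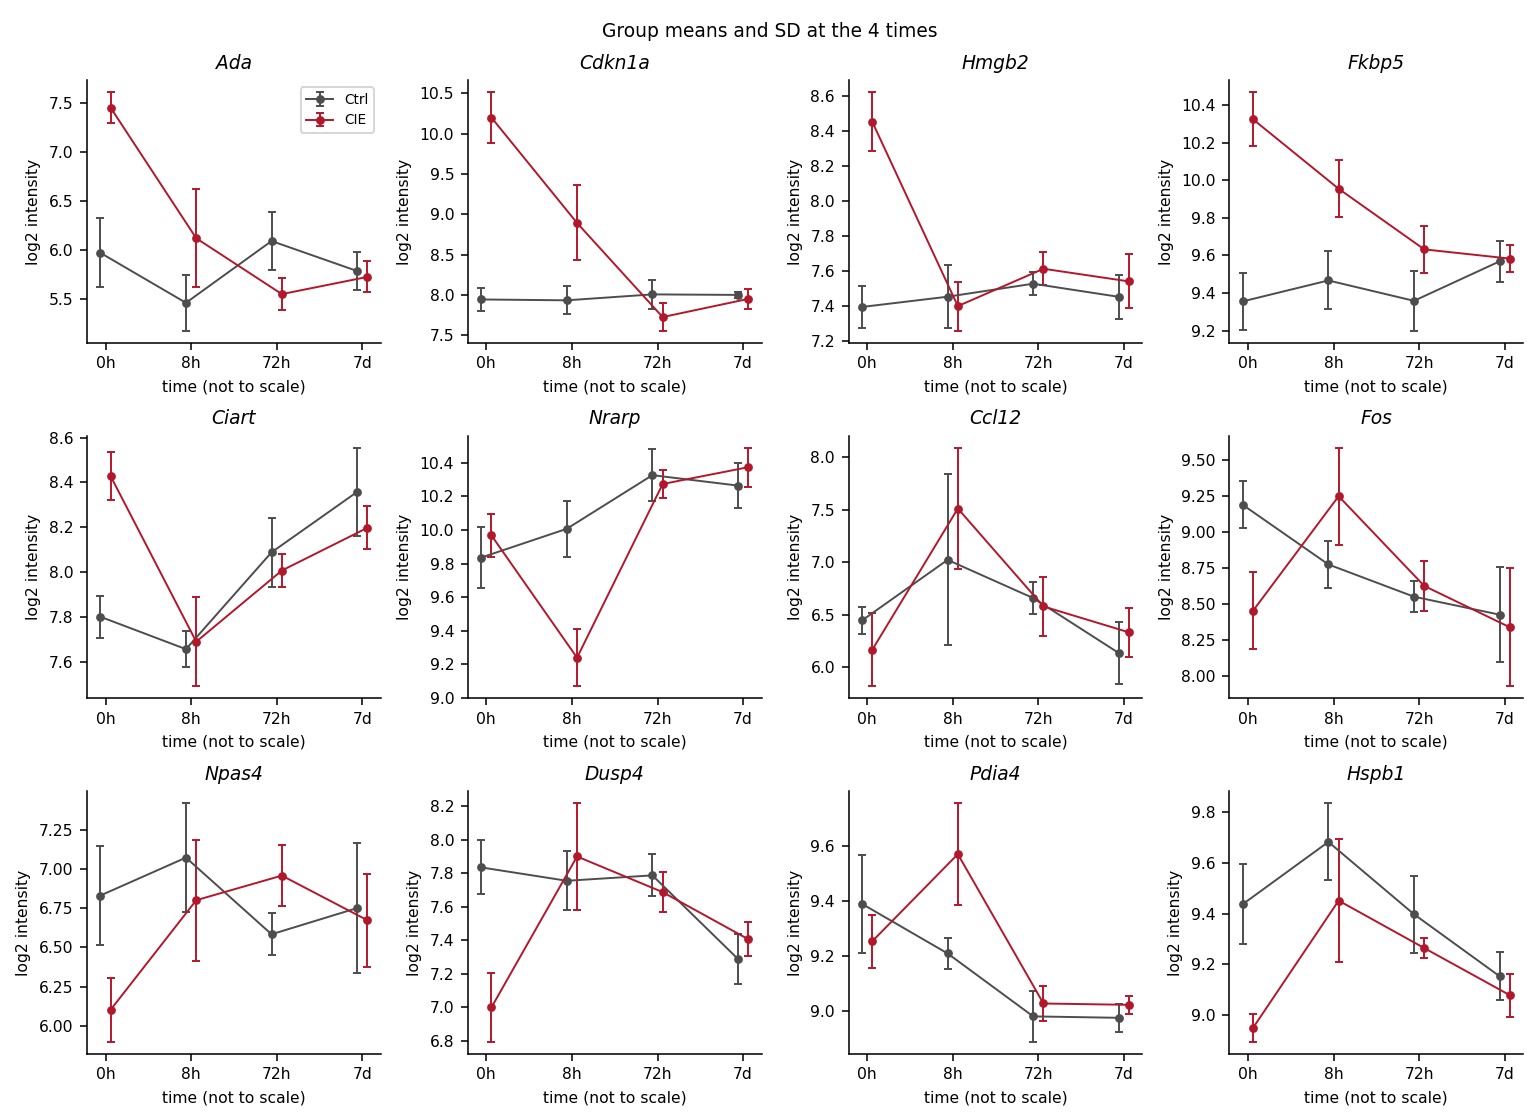
Mean log2 intensity of 12 genes in Ctrl (grey) and CIE mice (red) at 0h, 8h, 72h and 7d, with bars for the SD, 6 mice per point except 4 for CIE at 7d, and times evenly spaced. The means of CIE and Ctrl mice are furthest apart at 0h for Cdkn1a, Ada, Hmgb2, Fkbp5, Dusp4, Fos, Npas4 and Ciart. At 8h they are furthest apart for Cdkn1a, Nrarp and Ada.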

How the data were processed

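BNST RNA of 46 mice, 1 mouse per array, was hybridised to Affymetrix whole-genome mouse expression arrays. The authors corrected background by RMA, quantile normalized the arrays within each hybridization batch and again over all arrays, adjusted for batch with ComBat and deposited log2 intensities. Neither the RMA version nor the batch of an array is given in the sources used here, and the part of batch in the results was not tested. ComBat can also shrink the spread within groups. Groups were taken from the labels.

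The deposited log2 values of 45037 probesets were fitted with limma 3.58.1 in R 4.3.3 to the means of the 8 groups, with no covariate. The change in CIE mice, the change in Ctrl mice and their difference were tested after Benjamini-Hochberg adjustment over all probesets with a threshold of 0.01 on the adjusted p. Array intensities hold no read depth, and the number of mice limits the precision. A gene was read by its probeset of highest mean level among those with exactly 1 symbol, 34945 of them for 18193 genes, while 932 probesets with several symbols and 9160 with none were not named.

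The comparison and the 43 gene lists (784 genes, 723 measured) were chosen with earlier results of these data known. Named were the 12 largest rises and falls among called genes, up to 4 called members of each list (or the member with the smallest p), a set of fixed genes and the 10 genes with the smallest p of the difference. Further list members and the promoters shown were chosen after their values were seen, as were the ER stress element and the list counts without CIE 8h replicate 21. Alternatives changed the arrays fitted, their weights, alignment, covariates, moderation, level filter, threshold and choice of probeset. On simulated data, 82 of 100 changes of 0.5 and 99 of 100 changes of 1 were recovered for the CIE comparison, and 4 unchanged probesets were called. The simulated noise was independent between probesets, with no batch and no outlying array. These rates are thus not those of the deposited data.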

Additional observations from a re-analysis of the deposited data

Results flagged for a closer look

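For 16 genes taken by the naming rule the change from 0h to 8h differed between CIE and Ctrl mice by the limma test of the difference. With only the 4 groups at 0h and 8h fitted, the count of probesets for the difference fell from 36 to 10. Some of these 16 calls were thus lost there. With an array left out the count was 22 to 62. Which calls of the difference held was followed by gene only without CIE 8h replicate 21. The change in CIE mice minus that in Ctrl mice was 1.21 for Fos, 0.98 for Dusp4, 0.87 for Aox1, 0.70 for Depp1, 0.60 for Sdf2l1, 0.54 for Aass, 0.51 for Creld2 and 0.50 for Pdia4. It was -1.30 for Cdkn1a, -1.11 for Hmgb2, -0.90 for Nrarp, -0.87 for Hes5, -0.59 for Ciart, -0.46 for Aloxe3, -0.41 for Rbm33 and -0.35 for Xpo1. Among list members named beside these, it was -0.45 for Tef and 0.38 for Manf. Without CIE 8h replicate 21 the difference also passed by limma for Zfand4 (-0.77, adjusted p = 0.00775) and Sesn1 (-0.31, adjusted p = 0.00775). It then passed for Adcyap1r1, the receptor of PACAP, as well (-0.33, adjusted p = 0.00961).

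In 11 of the 212 sets of 6 mice examined, 1 mouse stood apart from the other 5 by Dixon's test, in which the gap to the nearest mouse is divided by the whole range and chance gives about 1 set in 20. In CIE 8h replicate 21 this held for Pdia4 (0.816, at 9.20 with the nearest at 9.61), Etv5 (0.696, 9.89 and 10.36), Pdk4 (0.638, 9.33 and 8.56) and Alas2, a gene of red blood cells (0.696, 6.96 and 6.18). In CIE 8h replicate 69 it held for Sgk1 (0.713, 11.99 and 12.58) and Dnaja1 (0.716, 12.63 and 12.58). In CIE 0h replicate 19 it held for Arc (0.761, 7.78 and 7.46) and Dnajb11 (0.78, 9.89 and 9.97). In CIE 0h replicate 67 it held for Gria4, a glutamate receptor subunit (0.69, 10.42 and 10.64), and Adcyap1r1, the receptor of PACAP (0.653, 11.22 and 11.40). In CIE 0h replicate 43 it held for Aldh2 (0.693, 10.09 and 10.19).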

How the results depend on the processing

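The 1458 probesets called in CIE mice became 792 with only the 24 arrays at 0h and 8h fitted, 3051 with array weights, 3760 with 2 residual components as covariates and 3432 at an adjusted p of 0.05, and 875 to 1391 with each array left out in turn. The 321 called in Ctrl mice became 23, 134, 2463 and 1632, and 45 to 732 with an array left out, the lowest without Ctrl 8h replicate 58 and the highest without Ctrl 0h replicate 48. The 36 for the difference became 10, 64, 122 and 107, and 22 to 62. The cause of these shifts was not tested. Aligned medians, a trended robust fit and brighter probesets only kept each count within 1.5 times. Changes near 0 turned sign with array weights for H2-K1 (0.07) and Crh (0.06). With all probesets of a gene averaged, the sign turned for Rbm33 (0.02), Arntl (-0.06), H2-K1 (0.03), Txnrd1 (-0.16), Gria4 (-0.11), Syn2 (-0.10) and Map2 (-0.26). That averaging also ended 18 of the 69 calls of named genes: Fyttd1, Opalin, Per2, Klf4, Etv5, Dnaja1, Tmem100, Ccnd1, Sesn1, Foxo3, Sc5d, P4ha1, Sfpq, Tra2a, Luc7l, Srsf2, Hdac9 and Smarce1. Fitting only the 24 arrays ended 24 of them, among them Npas4, Fkbp5, Pdk4, Txnip, Sdf2l1, Pdia4, Il1a, Vgf and Gabrr2, and fitting only the 12 CIE arrays ended 22, among them Hes5, Cirbp and Zfand4. With an array left out the sign turned for Npy (-0.08 to 0.08), H2-K1 (up to 0.05) and Crh (-0.15 to 0.16). No paired analysis was possible because the groups share no replicate numbers.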
